A study of Rattus norvegicus with 12 samples.

Results

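The transporters that carry bile acids, bilirubin, hormones and drugs into and out of rat hepatocytes were followed here by strain, in cells against nuclei, and between the periportal and pericentral ends of the lobule. The members were 9 genes taken by name, of which 8 were found by exact symbol among the 32883 genes of the files: Slco1b2, Slco1a1, Slco1a4, Slco2b1, Slc22a7, Abcc2, Abcc6 and Abcg2. Abcb4, the phospholipid transporter of the canalicular membrane, was not analysed here. The study profiled healthy male rat liver in 12 libraries. Total liver homogenate (TLH), a suspension made by collagenase perfusion, was sequenced as single cells from 2 Dark Agouti (DA) and 2 Lewis (LEW) rats with 10x 3' v2 chemistry. Nuclei from snap-frozen liver of 2 DA and 2 LEW rats, and immune-enriched suspensions of 1 DA and 1 LEW rat, were sequenced with v3 chemistry. A pair of Visium sections came from the liver of 2 Wistar rats. The age was 8 to 10 weeks by the labels of the TLH rats and 16 to 18 weeks by the methods text. All rats were untreated, and DA and LEW are both inbred strains.

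Liver transporters work in series. On the sinusoidal face that meets the blood, organic anion transporting polypeptides of the Slco family and organic anion transporters of the Slc22 family take up bile acids, bilirubin, hormones and drugs, and on the canalicular face ATP-binding cassette (ABC) pumps move conjugates, drugs and lipids into bile. Blood enters the lobule at the portal tract and leaves at the central vein, and hepatocytes along that path hold different sets of enzymes and carriers. The nuclear receptors Nr1i2 (PXR) and Nr1i3 (CAR) are known for inducing several of these genes after exposure to foreign compounds.

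Every value below is a count of unique molecular identifiers (UMIs), that is of captured transcript 3' ends, summed over the hepatocyte-like cells, nuclei or spots of 1 library and given per 1000000 UMIs of that sum (CPM). Hepatocyte-like is the name of clusters led by, or enriched in, a list of hepatocyte markers, with the members left out of the clustering. There were 15939 such TLH cells of 23036 kept (2860 to 4489 a rat, 6839839 to 12557199 UMIs in a sum) and 11312 nuclei of 12525 kept (1962 to 4963 a rat, 4503410 to 9894415 UMIs). The immune-enriched libraries held 1853, namely 240 from DA and 1613 from LEW, and 2260 and 2196 Visium spots had at least 5000 UMIs. A TLH cluster of 5890 hepatocyte-like cells was named by its leading genes only, not by the fold of the markers. Naming by fold only left 5908406 of 8514605 UMIs in TLH rat DA-1 and 8878120 of 12557199 in DA-2. It left 6115835 of 10762671 in LEW-1 and 3011689 of 6839839 in LEW-2. Free RNA was heavy, as read from 8 hepatocyte genes: Alb, Apoa1, Apoc1, Ttr, Fabp1, Serpina1, Fgb and Apoh. They are called secretory below, although Fabp1 is an intracellular protein. In TLH endothelial-like cells their median stood at 79.6% to 91.4% of the hepatocyte-like level, and in nuclei at 42.8% to 70.8%. The part of free RNA in the differences below was not tested. Slco1a1 and Slco1a4 are close paralogs, so how reads were shared between them and their relatives is uncertain.

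Slco1b2, Slco1a4 and Slco1a1 sit on the same rat chromosome, and the bases upstream of them are shown because these 3 genes were the members called higher pericentrally on Visium. The sequences are the 250 bases before the RefSeq gene start in GRCr8, written 5′ to 3′ along the gene (Slco1b2 at chr4:176282334-176282583 on the plus strand, Slco1a4 at chr4:176495847-176496096 and Slco1a1 at chr4:176681993-176682242, both on the minus strand). Capitals mark matches, on either strand, to GTTAAT (the HNF1 core), AGGTCA (a nuclear receptor core motif) or AGTTCA (a variant of it found in PXR and CAR elements).
Slco1b2: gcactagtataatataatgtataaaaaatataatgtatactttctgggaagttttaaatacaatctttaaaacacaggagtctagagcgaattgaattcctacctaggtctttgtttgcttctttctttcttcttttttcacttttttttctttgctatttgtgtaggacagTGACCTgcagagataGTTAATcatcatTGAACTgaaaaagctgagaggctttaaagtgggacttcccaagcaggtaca
Slco1a4: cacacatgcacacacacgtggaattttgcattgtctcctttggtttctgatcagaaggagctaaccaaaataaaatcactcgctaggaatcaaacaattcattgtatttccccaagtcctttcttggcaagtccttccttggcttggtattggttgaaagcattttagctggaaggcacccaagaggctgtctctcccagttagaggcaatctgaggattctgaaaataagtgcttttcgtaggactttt
Slco1a1: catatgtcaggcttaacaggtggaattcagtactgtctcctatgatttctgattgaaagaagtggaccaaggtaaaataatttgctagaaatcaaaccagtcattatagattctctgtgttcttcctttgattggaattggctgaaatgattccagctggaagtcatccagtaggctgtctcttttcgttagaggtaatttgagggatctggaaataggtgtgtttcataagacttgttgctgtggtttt
Slco1b2 held 1 match to each of the 3 motifs, and Slco1a4 and Slco1a1 held 0 in this window. Of the other members, none of them called pericentral on Visium, Abcc2 held 5 matches (1 to GTTAAT and 2 to each of the others), Slc22a7 held 1, and Slco2b1, Abcc6 and Abcg2 held 0. Of 33469 rat promoter windows of this length, 6.45% held GTTAAT, 14.1% held AGGTCA and 12.2% held AGTTCA. A match is letters in a window, not a measured site.

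The strain comparison asked whether hepatocytes of DA and LEW rats carry the same transporter set. None of the 8 members passed the threshold (adjusted p under 0.05, edgeR's quasi-likelihood test with Benjamini-Hochberg adjustment over 9842 genes) in TLH cells, where 4.22% of all genes did (2.07% higher and 2.14% lower in LEW). At an unadjusted p under 0.05 there were 2, Slco2b1 and Abcc6, and DESeq2 called 0. The members' median log2 fold change, LEW minus DA, was -0.15 beside a median of 0.00 over all genes.

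Slco2b1, an uptake carrier of steroid sulfates and drugs, came nearest to the threshold. It stood at 94.5 and 88.4 CPM in DA-1 and DA-2 and at 65.8 and 55.3 in LEW-1 and LEW-2. The 2 strains did not overlap, and the fitted level was 1.48-fold higher in DA (log2 fold change -0.56 ± 0.14 SE, edgeR adjusted p = 0.0608). It passed when no filter on low counts was used (adjusted p = 0.00682), when the class was replaced by all kept barcodes (0.0374) and when LEW cells down to 1500 UMIs, the limit in the methods text, were kept (0.0472), and it missed with a stricter filter on cells (-0.40, 0.439), with clusters named by fold only (-0.34, 0.313) and without any 1 rat (-0.69 to -0.45, 0.125 to 0.259). The immune-enriched hepatocyte-like cells, 1 library a strain, held 105 CPM in DA (exact Poisson 95% interval 96.5 to 114.6, counting error only) and 71.3 in LEW (68.4 to 74.2). In nuclei the same gene stood at 261 and 313 in DA and at 258 and 251 in LEW, with a fitted difference of -0.14 ± 0.39 (edgeR adjusted p = 0.939).

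Abcc6, a basolateral pump known for the ATP release that keeps soft tissue from calcifying, was at 110.0 and 105 CPM in DA TLH cells and at 82.4 and 78.4 in LEW. The groups did not overlap, yet the difference of -0.39 ± 0.13 missed the threshold (edgeR adjusted p = 0.134). In nuclei DA-1 and DA-2 held 741 and 739, and LEW-1 and LEW-2 held 471 and 782, on either side of the DA pair, and the immune-enriched libraries held 109.8 in DA and 107 in LEW. Slco1b2, the main organic anion uptake carrier of the rodent liver, had 640.5 and 621 CPM in DA TLH cells against 549.8 and 476 in LEW (-0.27 ± 0.13, edgeR adjusted p = 0.273). In nuclei it had 4408 and 3567 in DA and 2893 and 3343 in LEW. The DA rats were the higher pair in both preparations without passing in either, and the immune-enriched libraries stood the other way, at 382 in DA and 465 in LEW. The share of all genes with such an order in both preparations was not counted.

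Abcc2 (Mrp2), the canalicular pump of bilirubin glucuronides and glutathione conjugates, leaned towards LEW. TLH cells gave 128 and 103 CPM in DA against 133 and 145 in LEW (0.31 ± 0.15, edgeR adjusted p = 0.275), and the immune-enriched libraries gave 107 and 135. In nuclei the LEW rats differed from each other more than the strains did: LEW-1 had 325 and LEW-2 had 783, and the DA rats, at 279 and 443, overlapped with them. Slco1a4, which carries organic anions and digoxin-like drugs, showed the same kind of spread in nuclei, with 674 in LEW-1 and 248 in LEW-2 around 318 and 375 in DA. For Slco1a4 the 2 rats of 1 strain thus bracketed the other strain, in nuclei as in TLH cells (256 and 154 in LEW, 232 and 212 in DA).

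The remaining members gave no separation of the strains in TLH cells except Slc22a7. The share of all genes that separated the strains in TLH cells or in nuclei was not counted. With so few rats, values can separate without a strain difference, so separation alone is not evidence of one, here or for the members above. Slc22a7 (Oat2), a sinusoidal carrier of organic anions and nucleotides, stood at 99.6 and 101 in DA and at 90.5 and 78.7 in LEW (edgeR adjusted p = 0.39), and in nuclei the order was turned, with 126 and 143 in DA and 152 and 152 in LEW, as it was in the immune-enriched libraries, at 96.1 in DA and 104 in LEW. Slco1a1, a further sinusoidal anion carrier, ranged from 18.8 to 27.4 over the TLH rats and from 85.5 to 138 over the nuclei. Abcg2 (Bcrp), a canalicular pump of sulfated conjugates, was scarce, at 3.95 to 7.71 CPM in TLH cells on 27 to 83 UMIs a rat, so only large differences could be seen. In nuclei Abcg2 had 7.99 and 9.65 in DA and 11.4 and 12.6 in LEW, on 36 to 113 UMIs a rat and without a call.

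In nuclei 0 of 8 members were called by strain, where 1.39% of all genes were (0.569% higher and 0.82% lower in LEW). Of the members 0 had an unadjusted p under 0.05 and DESeq2 called 0. Their edgeR adjusted p ranged from 0.711 for Abcg2 to 0.939 for Slco2b1. The test of whether the strain difference itself differed between cells and nuclei called 0 of 8 members (0.00862% of all genes), with 0 at an unadjusted p under 0.05 and 0 by DESeq2. The strain difference in nuclei minus that in cells, in log2 units, was -0.12 ± 0.45 for Slco1b2, -0.32 ± 0.37 for Slco1a1, 0.55 ± 0.66 for Slco1a4, 0.39 ± 0.37 for Slco2b1, 0.39 ± 0.34 for Slc22a7, 0.25 ± 0.49 for Abcc2, 0.095 ± 0.40 for Abcc6 and 0.32 ± 0.46 for Abcg2, and -0.06 ± 0.56 for Slc10a1 and -0.13 ± 0.53 for Abcb11. With 2 rats a strain and preparation, p-values rest on the spread between those rats.

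**Figure D1:**
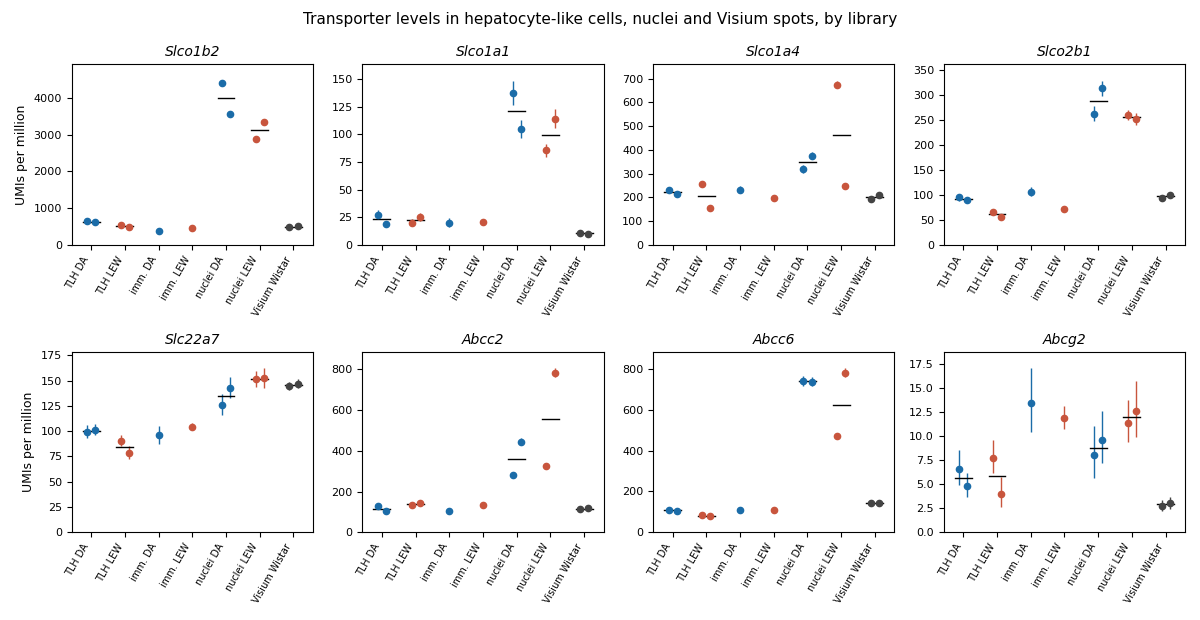
Level of each transporter, in CPM of the hepatocyte-like sum (Visium: all spots kept), for every library. Points are libraries with exact Poisson 95% intervals, horizontal bars are the means of 2 libraries, and imm. stands for immune-enriched. Slco1b2, Slco1a1, Slco2b1, Abcc2 and Abcc6 were higher in all 4 nuclei libraries than in any other library. The median gene was also higher in nuclei than in TLH cells, by 0.75 in log2 CPM.

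Other transporters and the regulators fixed as lists were read in the same fits. Of 26 further liver transporters 15 could be tested in TLH cells and 2 were called, both higher in LEW. Abcg5, which with Abcg8 exports sterols to bile, had 10.9 and 10.4 CPM in DA and 35.0 and 22.1 in LEW (1.46 ± 0.23, edgeR adjusted p = 0.0122), and the immune-enriched libraries stood the other way, at 49.9 in DA and 40.7 in LEW. Slc22a8 (Oat3), an organic anion carrier, had 57.3 and 62.0 in DA and 93.8 and 85.4 in LEW (0.61 ± 0.13, edgeR adjusted p = 0.044), with 63.2 and 148.5 in the immune-enriched libraries of DA and LEW. The sodium-dependent bile acid uptake carrier Slc10a1 (Ntcp) and the canalicular bile salt pump Abcb11 (Bsep) had differences of 0.02 ± 0.17 and 0.03 ± 0.18 (edgeR adjusted p = 0.968 and 0.946).

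Of 14 regulators 3 were called, all lower in LEW TLH cells. Nr1i3 had 77.8 and 95.9 CPM in DA and 36.8 and 39.5 in LEW (-1.16 ± 0.16, edgeR adjusted p = 0.00645), Ahr, the aryl hydrocarbon receptor, differed by -0.71 ± 0.13 (0.024), and Nr1i2 by -0.64 ± 0.13 (0.0345). The immune-enriched libraries lay in the same order of strains, with Nr1i3 at 76.1 in DA and 32.7 in LEW, Nr1i2 at 60.4 and 42.3, and Ahr at 108 and 41.1. In nuclei 0 of 14 regulators and 0 of 15 further transporters passed with edgeR (1 of each at an unadjusted p under 0.05; DESeq2 called 1 regulator and 0 transporters). There Slc10a1 and Abcb11 differed by -0.02 ± 0.47 and -0.07 ± 0.45, and Nr1i2 stood at 375 and 378 in DA and at 158 and 274 in LEW. Ahr and Nr1i3 are also among the pericentral genes of the zone score below, and a difference in zone make-up between the TLH libraries was not tested.

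The comparison of cells with nuclei asked which transcripts the 2 preparations capture in different proportion. Of 8 members 5 were called, all higher in nuclei (edgeR adjusted p under 0.05), where 37.7% of all genes were called higher and 34.9% lower, 72.5% in all. The median log2 fold change of the members was 0.98 beside 0.07 over all genes. Preparation, chemistry, sequencer and rats changed together between these libraries and cannot be told apart in this test. Markers of other cells differed too, in both directions. In the hepatocyte-like sums 21 endothelial markers summed to 1656 to 2207 CPM in cells and 558 to 691 in nuclei. The 20 macrophage markers summed to 569 to 825 in cells and 151 to 205 in nuclei. The 16 cholangiocyte markers went the other way, at 507 to 629.5 in cells and 761 to 1235 in nuclei. The 21 mesenchymal markers overlapped, at 860 to 1195 and 677 to 1049. Their part in the result was not tested.

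Abcc6 showed the largest difference among the members, with 78.4 to 110.0 CPM over the 4 TLH rats and 471 to 782 over the 4 nuclei rats (2.01 ± 0.19, a fitted fold of 4.03, edgeR adjusted p = 9.26e-07). Slco1b2 followed, with 572 ± 74.8 (SD, n = 4) in cells and 3553 ± 635.3 in nuclei (1.79 ± 0.21, edgeR adjusted p = 5.16e-06). Slco1a1 rose from 22.8 ± 4.00 to 110.5 ± 21.6 (1.43 ± 0.19). Slco2b1 and Abcc2 were higher in nuclei by 1.01 ± 0.18 and 0.94 ± 0.23. In CPM every nuclei library lay above every TLH library for these 5 genes and for Slc22a7 and Abcg2. The median gene was also 0.75 higher in nuclei in log2 CPM, and the share of all genes separated in this way was not counted.

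Slco1a4, Slc22a7 and Abcg2 were not called. Slco1a4 had 213.5 ± 43.4 in cells and 404 ± 187.6 in nuclei (0.09 ± 0.32, edgeR adjusted p = 0.808), Slc22a7 had 92.5 ± 10.4 and 143 ± 12.3 (-0.22 ± 0.17, 0.251) and Abcg2 had 5.75 ± 1.71 and 10.4 ± 2.03 (-0.01 ± 0.22, 0.964). The unscaled ratio and the fit differ because the fit uses TMM scaling: the median gene of 8350 with at least 10 UMIs in each sum was 0.75 higher in nuclei in log2 CPM, while the median fitted difference over the 10616 genes tested was 0.07. Relative to that median gene, the unscaled log2 ratios of 0.92 for Slco1a4, 0.63 for Slc22a7 and 0.86 for Abcg2 are near it, and those of Abcc6 (2.86) and Slco1b2 (2.64) are far above it. The results for the first pair depended on how nuclear and TLH clusters were named: Slco1a4 passed at 0.74 (edgeR adjusted p = 0.0306) when only leading genes were used, and Slc22a7 passed as lower in nuclei at -0.51 (0.0134) when only the fold of the markers was used.

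The immune-enriched libraries, 1 a strain and from another kind of suspension, are cells sequenced with the v3 chemistry and the type of sequencer used for nuclei, and are given as values with no test. Their hepatocyte-like cells held Slco1b2 at 382 and 465 CPM, Abcc6 at 109.8 and 107, Slco1a1 at 19.8 and 20.8, Slco2b1 at 105 and 71.3, and Abcc2 at 107 and 135. For all 5 genes both values lay below the lowest nuclei library and within or near the TLH range. Abcg2 went the other way, at 13.5 and 11.9 in the immune-enriched cells against 3.95 to 7.71 in TLH cells and 7.99 to 12.6 in nuclei.

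Of the further transporters 10 of 15 were called, all higher in nuclei. The lactate carrier Slc16a1 (1.35 ± 0.23), the carnitine carrier Slc22a5 (1.33 ± 0.20), Abcg8 (1.19 ± 0.33) and the drug pump Abcb1a (0.94 ± 0.26) had the largest differences, while Slc10a1 (-0.36 ± 0.25, edgeR adjusted p = 0.208) and Abcb11 (0.22 ± 0.24, 0.435) were not called. Of the 14 regulators 8 were higher in nuclei and 1, Cebpa, was lower at -1.01 ± 0.23. Ppara (2.44 ± 0.52), Nr1i3 (2.04 ± 0.23), Onecut1 (1.78 ± 0.54) and Rxra (1.72 ± 0.26) were the furthest apart.

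**Figure D2:**
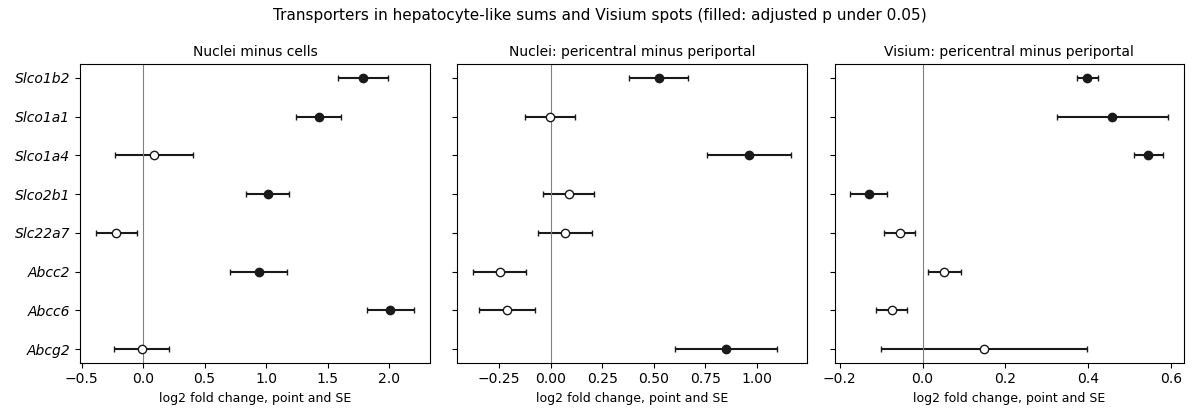
Fitted log2 fold changes of the 8 transporters with their standard errors, for nuclei minus cells and for pericentral minus periportal in nuclei and on Visium. The horizontal axes differ between panels; filled points have an adjusted p under 0.05. Slco1b2 and Slco1a4 are filled in both zone panels.

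For zonation each nucleus or spot was scored as periportal minus pericentral expression over 25 (nuclei) or 26 (Visium) zone genes, none of them a member. Each library was divided into 3 equal groups by score, with 654 to 1655 nuclei a group. The regulators Nr1i3 and Ahr are among these pericentral zone genes and are not in the study's own shorter list. Their part in the members' zone differences was not tested. The comparison asked where along the lobule each carrier is expressed. In nuclei 3 of 8 members were called, all higher pericentrally, where 5.7% of all genes were called higher and 5.21% lower. On Visium 3 were higher pericentrally (7.41% of all genes) and 1 was lower (8.69%). Slco1b2 and Slco1a4 were called in the same direction in both.

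Slco1b2 had, in the periportal and the pericentral group, 4479 and 4594 CPM in DA-1, 3044 and 4511 in DA-2, 2544 and 3746 in LEW-1, and 2829 and 3900 in LEW-2. The pericentral value was the higher in 4 of 4 rats, though by little in DA-1 (0.52 ± 0.14, edgeR adjusted p = 0.0195, rat as a block). The call was lost without DA-2 (0.45, adjusted p = 0.237), without LEW-2 (0.54, 0.0973) and without the block (0.50, 0.719). On Visium it had 420.0 and 539 in section 1 and 437 and 599 in section 2 (0.40 ± 0.03, edgeR adjusted p = 3.34e-49). Over 10 equal bins on Visium the level climbed from 403 in the most periportal to 591 in the most pericentral bin of section 1 and from 412 to 656 in section 2. In nuclei the most pericentral bin was the highest of the 10 in 4 of 4 rats, at 5224 and 5983 in the DA rats and 5154 and 4722 in the LEW rats.

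Slco1a4 had the largest zone difference of the members in nuclei in the main fit. It did not have the largest under some other settings, among them the study's own zone genes, no block, and DA-2 left out. Its periportal and pericentral values were 169.9 and 457 in DA-1, 202 and 541 in DA-2, 605 and 678 in LEW-1, and 209 and 285 in LEW-2 (0.96 ± 0.20, edgeR adjusted p = 0.00303). The pericentral value was the higher in 4 of 4 rats, and the call was lost without DA-2 (0.75, adjusted p = 0.0933) and without the block (0.80, 0.782). On Visium section 1 had 159 and 228 and section 2 had 168 and 253 (0.55 ± 0.03, edgeR adjusted p = 7.49e-56). The adjusted p was 1.18e-17 under DESeq2 and 8.36e-06 with edgeR without the section as a block. With 2 sections, the size of such p-values, here and for Slco1b2, says little about the spread between rats. With the study's own shorter list of zone genes the nuclear difference was 0.37 and not called (adjusted p = 0.336), and LEW-1 was then lower pericentrally (648 and 625) and LEW-2 near level (243 and 257), whereas the Visium difference was 0.52 and called.

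Abcg2 was called pericentral in nuclei on few molecules, with 4, 16, 28 and 21 UMIs in the periportal groups of DA-1, DA-2, LEW-1 and LEW-2 and 15, 20, 44 and 29 in the pericentral groups (0.85 ± 0.25, edgeR adjusted p = 0.0291). All 4 rats were higher pericentrally in CPM, but the call was lost under DESeq2 (adjusted p = 0.0644), without DA-1 (0.13), without DA-2 (0.134) and without the block (0.389). It was also lost under each other way of dividing the nuclei, namely the study's zone genes (0.57, 0.307), the outer 10% (1.28, 0.0535) and clusters (0.56, 0.0731), and on Visium the difference was 0.15 ± 0.25 on 197 UMIs in all. Slco1a1 was called pericentral on Visium, at 9.86 and 13.2 in section 1 and 8.13 and 11.6 in section 2 (0.46 ± 0.13, edgeR adjusted p = 0.00629), and not in nuclei (-0.0046 ± 0.12). Slco2b1 was the member called periportal, on Visium alone, by a small margin: 98.1 against 87.8 in section 1 and 104 against 98.5 in section 2 (-0.13 ± 0.04, edgeR adjusted p = 0.0245). Neither of these Visium calls held under DESeq2 (adjusted p = 0.642 for Slco1a1 and 0.863 for Slco2b1) or without the section as a block (0.106 and 0.273), and that of Slco2b1 was also lost with the study's zone genes (-0.10, 0.161) and with the outer 10% of spots (-0.12, 0.375). In nuclei Slco2b1 differed by 0.09 ± 0.12 in the fit, which uses TMM scaling, and was not called. Its ratios in CPM, pericentral to periportal, were 1.045 in DA-1, 0.994 in DA-2, 0.949 in LEW-1 and 0.938 in LEW-2.

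The ABC pumps Abcc2 and Abcc6 and the carrier Slc22a7 were not called by zone. Abcc2 was lower pericentrally in 4 of 4 rats, from 296 to 234 in DA-1, from 528 to 404 in DA-2, from 380.1 to 309 in LEW-1 and from 908 to 676 in LEW-2 (-0.25 ± 0.13, edgeR adjusted p = 0.232). It passed when whole clusters were ranked by zone instead of single nuclei (-0.32, adjusted p = 0.00174). With the study's zone genes the pericentral to periportal ratios were nearer 1, at 0.90 and 0.96 in DA-1 and DA-2 and 1.04 and 0.89 in LEW-1 and LEW-2, so LEW-1 was then higher pericentrally. On Visium the sections went opposite ways for Abcc2, from 109 to 122 in section 1 and from 120.0 to 117 in section 2 (0.05 ± 0.04, edgeR adjusted p = 0.464). Abcc6 had, in the periportal and the pericentral group, 947 and 538 in DA-1, 884 and 659 in DA-2, 527 and 529 in LEW-1, and 811 and 758 in LEW-2. The like values of LEW-1 hid a dip between them, from 732 in the most periportal of 10 bins to 314 in the fourth and 750 in the most pericentral. The dip was not particular to Abcc6. In the same bins of LEW-1 Slco1b2 had 2933, 2234 and 5154 and Slco1a1 had 114, 84.9 and 101. Slco1a4 was instead highest in the middle group of LEW-1, at 746. With the study's zone genes DA-1 alone was lower pericentrally for Abcc6, at a ratio of 0.715, and DA-2, LEW-1 and LEW-2 were higher, at 1.03, 1.54 and 1.23. Slc22a7 differed by 0.07 ± 0.13 in nuclei and -0.06 ± 0.04 on Visium, where it passed as periportal with the outer 10% of spots (-0.18, edgeR adjusted p = 0.03). In nuclei its ratios in CPM, pericentral to periportal, were 1.205 in DA-1, 0.909 in DA-2, 0.863 in LEW-1 and 0.957 in LEW-2. The members did not share a zone pattern: Slco1b2 and Slco1a4 were called pericentral in both assays with 3 equal groups, and Slc22a7, Abcc2 and Abcc6 in neither.

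**Figure D3:**
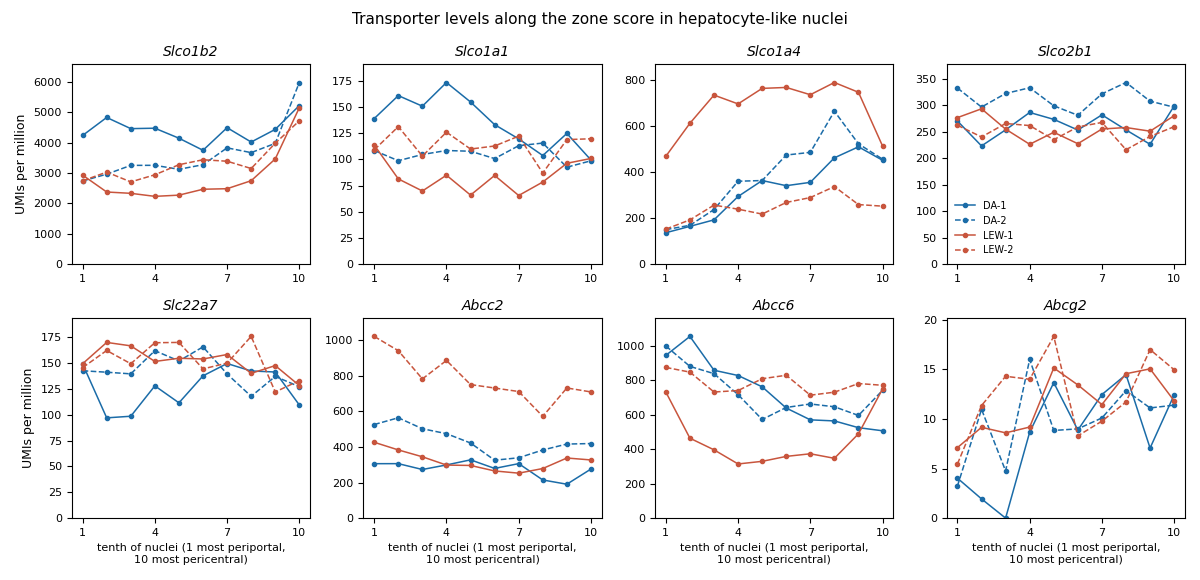
Level of each transporter in 10 equal bins of hepatocyte-like nuclei ordered by zone score, from 1 (most periportal) to 10 (most pericentral), in CPM, one line for each rat (blue DA, red LEW; replicate 1 solid, replicate 2 dashed). Slco1a4 starts at 137 to 153 in bin 1 of DA-1, DA-2 and LEW-2 and climbs most in the DA rats, while LEW-1 is the highest rat in all 10 bins.

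**Figure D4:**
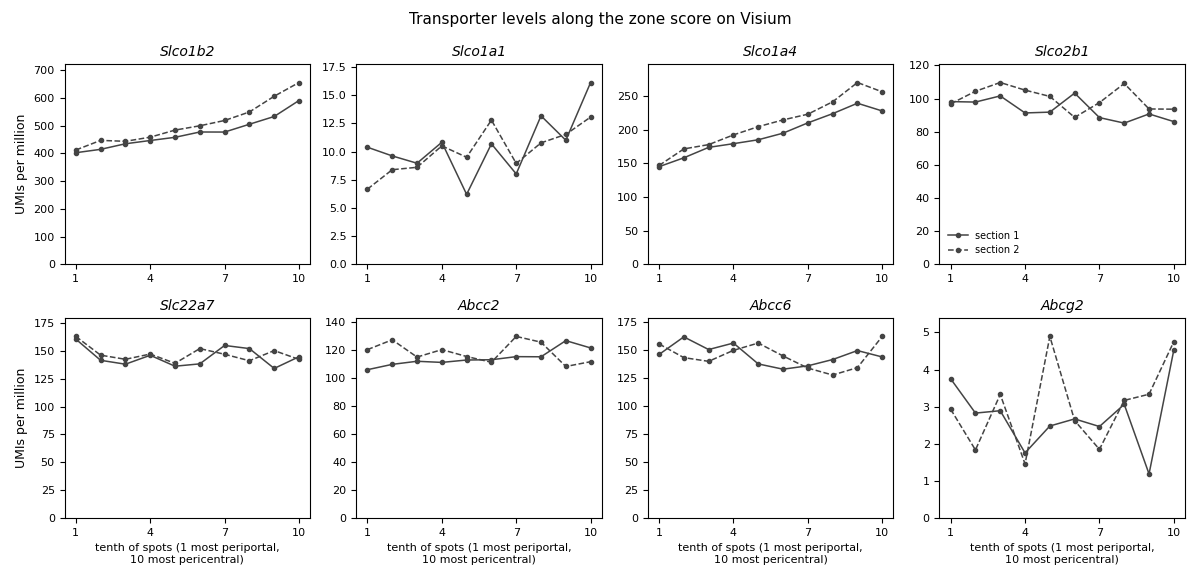
The same 10 bins for Visium spots of the 2 Wistar sections (solid section 1, dashed section 2), in CPM. Slco1b2 and Slco1a4 climb towards the pericentral end in both sections, and Slc22a7, Abcc2 and Abcc6 stay near level.

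A Visium spot covers several cells, and in spots fewer cells of a type and less RNA per cell cannot be told apart. Summed over 20 macrophage markers, the periportal spots held 1565 and 1754 CPM in sections 1 and 2 and the pericentral spots 935 and 1027. The 33 hepatocyte markers summed to 259400 and 263800 periportally and to 237900 and 240100 pericentrally. In nuclei the 21 endothelial markers summed to 431 in the periportal and 764 in the pericentral group of DA-1, and to 428 and 655 in LEW-2, with 560.1 and 558 in DA-2 and 625 and 644 in LEW-1. The part of these in the zone differences was not tested.

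Genes with profiles most like a member over the 20 Visium bins, 10 in each section, were listed as a description, since all bins share 2 sections and the zone score. Slco1b2 ran closest to Ugt1a5, a UDP-glucuronosyltransferase (Pearson r = 0.986), Gstm1, a glutathione transferase (0.981), and Rmdn2 (0.977). Slco1a4 ran closest to LOC100910877 (0.977), the epoxide hydrolase Ephx1 (0.973) and the cytochrome Cyp2c11 (0.964). The other members had looser matches: the best were Habp2 for Slco1a1 (0.789), Dpys for Slco2b1 (0.79), Psen2 for Abcc6 (0.761), Snx3 for Slc22a7 (0.736) and mrpl11 for Abcc2 (0.649). Abcg2 had too few UMIs on Visium for this.

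Of the 15 further transporters tested by zone in nuclei 5 were called. The nucleoside carrier Slc29a1 (0.88 ± 0.12) was among those higher pericentrally, and Abcg5 (-2.88 ± 0.18), Abcg8 (-2.85 ± 0.21) and Abcb1a (-0.62 ± 0.14) were lower. On Visium edgeR called 4 higher pericentrally and 5 lower, and DESeq2 called 5 in all. There Slc29a1 differed by 0.48 ± 0.05, Abcg5 by -1.84 ± 0.16 and Abcg8 by -1.55 ± 0.21. Slc10a1 was slightly higher (0.09 ± 0.03, edgeR adjusted p = 0.00786) and Abcb11 slightly lower (-0.11 ± 0.03, 0.0021). In nuclei Slc10a1 (0.35 ± 0.16, edgeR adjusted p = 0.162) and Abcb11 (-0.29 ± 0.13, 0.147) had the same signs without passing. Abcg5 and Abcg8 had the largest zone differences of the transporters tested in both assays, with nuclei at 72.4 to 109.9 CPM of Abcg5 periportally and 7.24 to 16.1 pericentrally.

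Of the 14 regulators in nuclei 2 were higher pericentrally and 3 lower. Ahr (2.16 ± 0.17) and Nr1i3 (1.56 ± 0.14) are themselves zone-score genes, so their difference is built in. Onecut1 (-0.89 ± 0.15), Nr1i2 (-0.64 ± 0.14) and Nr0b2, the bile-acid-induced repressor SHP (-0.46 ± 0.14, edgeR adjusted p = 0.0322), were lower. On Visium 12 regulators were tested: Nfe2l2 (0.25 ± 0.04) joined Ahr and Nr1i3 as higher pericentrally, and Nr0b2 (-0.68 ± 0.07) and Nr1i2 (-0.26 ± 0.05) were lower.

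Whether zonation differs between strains was tested as the interaction of strain and zone in nuclei, and 1 of 8 members was called, Slco1a4, where 3.61% of all genes were and 3.08% in its direction. Its pericentral value was 2.69 and 2.68 times the periportal one in DA-1 and DA-2 and 1.12 and 1.36 times in LEW-1 and LEW-2. The strains did not overlap, though the share of all genes separated in this way was not counted. The log2 difference was smaller in LEW by 1.36 (-1.36 ± 0.24, edgeR adjusted p = 0.00103). LEW-1 reached this with a high periportal level (605 against 170 to 209 in the other 3 rats), LEW-2 with a low pericentral one (285 against 457 to 678). Most of the 8 secretory genes ran the same way: Ttr had ratios of 2.01 and 1.53 in DA and 0.98 and 1.11 in LEW. Apoc1 had 2.10 and 1.69 in DA and 1.03 and 1.31 in LEW. Alb, Serpina1, Fgb and Apoh also separated in this order, and Apoa1 and Fabp1 overlapped. Median UMIs a nucleus were 2144.5 periportally and 1413 pericentrally in DA-1, and 2310 and 1681.5 in DA-2. They were 1742 and 1492.5 in LEW-1 and 2143 and 2155 in LEW-2. The part of these was not tested. The other members had no call, with edgeR adjusted p from 0.315 for Slc22a7 to 0.982 for Slco1a1, and differences of -0.02 ± 0.26 for Slco1b2, 0.02 ± 0.23 for Slco1a1, -0.35 ± 0.23 for Slco2b1, -0.44 ± 0.24 for Slc22a7, -0.24 ± 0.23 for Abcc2, 0.34 ± 0.24 for Abcc6 and -0.76 ± 0.51 for Abcg2. Abcb11 differed by 0.08 ± 0.23. Slc10a1 had a difference of the same sign (-0.76 ± 0.24, edgeR adjusted p = 0.0614), and 0 of 15 further transporters and 0 of 14 regulators passed with edgeR (4 and 3 at an unadjusted p under 0.05, and 1 and 0 by DESeq2).

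**Figure D5:**
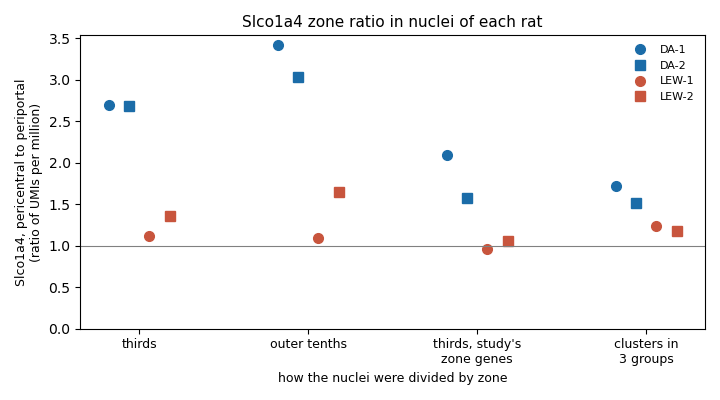
Ratio of the Slco1a4 level in CPM, pericentral to periportal, in the nuclei of each rat under 4 ways of dividing them by zone (blue DA, red LEW; circle replicate 1, square replicate 2). The DA rats lie above the LEW rats under all 4, from 2.69 and 2.68 against 1.12 and 1.36 with 3 equal groups to 1.71 and 1.51 against 1.24 and 1.17 with clusters.

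The Slco1a4 difference passed with the outer 10% of nuclei at each end (-1.49) and with the study's zone genes (-1.14). It missed the threshold when clusters were ranked in place of nuclei (-0.44, edgeR adjusted p = 0.431), when DA-1 was left out (-1.35, 0.106) and when the rat was not a block (-1.45, 0.99).

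Outside hepatocyte-like clusters the members' UMIs were set against the 8 secretory genes. Both were taken as ratios to the hepatocyte-like level of the same library, with no test. That other cells lack the secretory genes was assumed and not tested. In TLH endothelial-like cells Slco1b2 stood at 50.4% to 57.1%, Abcc6 at 40.3% to 55.3% and Abcc2 at 76.3% to 90.4%, where the secretory median was 79.6% to 91.4%. In TLH macrophage-like cells Slco2b1 stood at 37.6% to 62.7% beside a secretory median of 55% to 71.3%. None of these lay above the secretory median in all 4 rats, so expression in those cells cannot be read from them. Slco2b1 in TLH mesenchymal-like cells was at 73.4% to 103% and above the secretory median of the same rat in 3 of 4 rats, on 15 to 129 UMIs. In nuclei the order was turned for some: in macrophage-like nuclei Abcc2 (72.4% to 97.7%), Abcc6 (69.7% to 141.9%) and Slco1b2 (59% to 134.6%) lay above the secretory median of the same rat (41.6% to 56.8%) in 4 of 4 rats, on 36 to 1667 UMIs. The same 3 genes were called higher in nuclei than in cells above. Whether these UMIs came from hepatocyte RNA outside nuclei was not tested. Some of the 8 secretory genes also lie above their own median. A ratio above that median thus does not by itself mean expression in those cells.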

How the data were processed

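The deposited files hold UMI counts per gene and barcode, made by the authors with Cell Ranger 3.1.0 and, for Visium, Space Ranger 1.1.0 (per the submitters' processing notes) on Rnor 6.0; no correction for free RNA was made here. Barcodes were kept above 1000 to 2000 UMIs and below a mitochondrial share of 10% to 50%, limits that differ between TLH libraries, and Visium spots from 5000 UMIs. For cells and nuclei the limits are those of the study's methods, except for both LEW TLH rats. There 2000 UMIs were used in place of the stated 1500 because this leaves the study's total of 23036 cells. A limit of 1500 was run as an alternative. The limit on spots was set here, as the study's methods give none. Cells were clustered without the members (R 4.3.3, Seurat 5.3.0, sctransform 0.4.2). UMI counts were summed per library, or per library and zone group, and tested with edgeR 4.0.16 (quasi-likelihood, TMM, low-count filter, Benjamini-Hochberg over all genes; rat or section as a block for zone), with DESeq2 1.42.0 as an alternative. Scrublet marked 8 TLH cells and 76 nuclei as doublets, which stayed in, and nuclei libraries shared 8 to 24 barcodes in pairs. Intervals are exact Poisson and cover counting error only. The members, gene lists and tests were chosen with earlier results of these data known. All members were named in each comparison, and of the further transporters and regulators Slc10a1, Abcb11 and at most the 4 called genes with the largest fold change; Cebpa, Nr0b2 and Abcb1a by zone in nuclei and Nfe2l2 on Visium fall outside this and were named after their values were seen. The scripts were tested on simulated data. Nothing says that the replicates were prepared on separate days, so p-values measure the spread between these samples. A further transporter that this rule would name by zone is not reported here.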

Additional observations from a re-analysis of the deposited data

Results flagged for a closer look

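The zone difference of Slco1a4 in nuclei differed between the strains by a test of that difference itself: pericentral minus periportal was smaller in LEW than in DA by a log2 difference of -1.36 (edgeR adjusted p = 0.00103, with 2 rats a strain). The same test called 3.61% of all genes, 3.08% in the direction of Slco1a4. The pericentral to periportal ratio of Slco1a4 was 2.69 and 2.68 in the DA rats and 1.12 and 1.36 in the LEW rats. With clusters in 3 groups the log2 difference was -0.44 (edgeR adjusted p = 0.431), and the call was also lost without DA-1. Most of the 8 secretory genes ran the same way, such as Ttr (2.01 and 1.53 in DA, 0.98 and 1.11 in LEW). Alb, Apoc1, Serpina1, Fgb and Apoh also separated in this order, and Apoa1 and Fabp1 overlapped. Their part in this result was not tested.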

How the results depend on the processing

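Of the members' values under other settings, none that was called in either fit changed sign. By strain in TLH cells 0 members became 1, Slco2b1, without a filter on low counts, with all kept barcodes, with a LEW limit of 1500 UMIs and with crossed pairing. By zone in nuclei 3 became 1 with the study's zone genes and 0 to 3 when a rat was left out (0 without DA-2: Slco1b2 at 0.45, Slco1a4 at 0.75, Abcg2 at 0.87). Without DA-1 Abcg2 was lost (0.64), and without LEW-2 Slco1b2 (0.54). On Visium 4 became 2 under DESeq2, and leaving out a section left values with no test. The strain by zone result went from 1 to 0 with clusters in 3 groups, and was 0 to 1 when a rat was left out (0 without DA-1). The causes were not tested.

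Without the rat as a replicate block 0 members were called by zone in nuclei and 0 for strain by zone, and without the section 2 on Visium. Strain fits have no block: replicate numbers did not pair the samples (correlations of -0.127 in TLH and 0.0873 in nuclei), and with a replicate block 217 genes were called in TLH cells and 482 in nuclei, against 415 and 149. With the numbers of 1 strain crossed, 1049 genes were called by strain in TLH cells.

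Over all genes, the strain count in TLH cells of 415 was 1141 without a filter, 210 with a stricter filter on cells and 137 to 317 without 1 rat. In nuclei 149 was 245 under DESeq2, 526 without a filter, 73 with the stricter filter, 227 by leading genes only and 59 to 275 without 1 rat. The strain by preparation count of 1 was 0 to 24 over all settings. By zone in nuclei 993 was 97 without the block, 583 with the study's zone genes and 417 to 1865 without 1 rat, and on Visium 1556 was 537 under DESeq2 and 680 without the block. Strain by zone at 349 was 0 without the block, 210 with the study's genes, 55 with the outer 10%, 24 with clusters and 14 to 874 without 1 rat. Abcg2 and, on Visium, Slco1a1 rest on few UMIs, where only large differences could be seen.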
